A study of Mus musculus with 4 samples.

Results

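The isocitrate dehydrogenases are 5 genes in the mouse, Idh1 and Idh2, whose enzymes use NADP, and Idh3a, Idh3b and Idh3g, whose products form an enzyme that uses NAD. They were picked by name from the 55487 gene identifiers counted in liver, and all 5 were found. The choice was made knowing that Idh2 was higher in PA liver in these same data, so the PA and WT values of the family are given as a description and support nothing by themselves. Polyadenylated RNA was sequenced from the livers of 2 PA and 2 WT mice, all female, 11 weeks old, on the FVB background and fed standard chow. The PA mice are labelled Pcca-/- with the A138T form and hypomorphic. Pcca codes for the alpha subunit of propionyl-CoA carboxylase, which clears propionyl-CoA, and the labels used here do not say what drives the A138T form or whether the mice were littermates. The replicates are called biological in the design text. The title of the series places the work in the study of histone H4 acylation under metabolic perturbation. Gene counts summed to 25990553 and 30110400 in PA replicates 1 and 2, and to 29627033 and 25575016 in WT replicates 1 and 2. Pcca itself stood at 34.2 and 47.4 CPM (counts scaled per library by the trimmed mean of M values, TMM) in PA livers, against 60.3 and 58.9 CPM in WT livers. By edgeR's quasi-likelihood test that difference was not called (adjusted p = 0.398), and the count of Pcca is therefore only a limited check of the genotype labels. Albumin, the defining transcript of hepatocytes, was at 120638 and 147200 CPM in PA livers, against 130577 and 149441 CPM in WT livers.

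Isocitrate dehydrogenases turn isocitrate into 2-oxoglutarate and carbon dioxide. The enzyme of Idh1 works in the cytosol and peroxisomes, that of Idh2 in the mitochondrial matrix, and both yield NADPH, the reductant used for lipid synthesis and for the glutathione and thioredoxin systems. The enzyme of Idh3 is the NAD-linked step of the citric acid cycle in the mitochondrial matrix. Its alpha subunit, from Idh3a, carries most of the catalytic site, while the beta and gamma subunits, from Idh3b and Idh3g, have structural and regulatory roles. In the liver the family links the citric acid cycle, amino acid breakdown and the supply of NADPH, and 2-oxoglutarate is also a co-substrate of histone and DNA demethylases.

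The members lie on 5 chromosomes (GRCm38). Idh2 (ENSMUSG00000030541) spans 80094846 to 80115392 of chromosome 7 on the minus strand, and Idh1 (ENSMUSG00000025950) spans 65158616 to 65186500 of chromosome 1 on the minus strand. Idh3a (ENSMUSG00000032279) lies on the plus strand of chromosome 9, from 54586334 to 54604661. Idh3b (ENSMUSG00000027406) lies on the minus strand of chromosome 2, from 130279309 to 130284547, and Idh3g (ENSMUSG00000002010) on the minus strand of the X chromosome, from 73778963 to 73786897.

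The 250 bases before the transcription starts of Idh2 and Idh1 are printed because the mean levels of these genes, which encode the NADP-linked pair, differed between PA and WT in opposite directions. The sequences are from RefSeq (GRCm38.p6, a C57BL/6J reference, not the FVB strain), in which 4 of the 5 members have an entry. Capitals mark matches on either strand to 5 short motifs, which were chosen with the expression values known. They are the CCAAT box (CCAAT), the GC box (GGGCGG), the E-box (CACGTG), the nuclear receptor half-site (AGGTCA) and the core of the antioxidant response element (TGACNNNGC). None of the capital runs below belongs to more than 1 motif. RefSeq gives Idh1 a pair of starts, and the gene-level counts do not say which was used. The windows are chr7:80115351-80115600 for Idh2, chr1:65186480-65186729 for the upstream start of Idh1 and chr1:65179143-65179392 for its internal start, all on the minus strand and written 5′ to 3′.
Idh2: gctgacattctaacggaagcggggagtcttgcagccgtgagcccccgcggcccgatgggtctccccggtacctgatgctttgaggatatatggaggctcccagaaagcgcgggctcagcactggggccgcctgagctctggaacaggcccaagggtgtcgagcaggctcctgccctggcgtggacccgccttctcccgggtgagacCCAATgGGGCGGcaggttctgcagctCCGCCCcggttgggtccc
Idh1 upstream start: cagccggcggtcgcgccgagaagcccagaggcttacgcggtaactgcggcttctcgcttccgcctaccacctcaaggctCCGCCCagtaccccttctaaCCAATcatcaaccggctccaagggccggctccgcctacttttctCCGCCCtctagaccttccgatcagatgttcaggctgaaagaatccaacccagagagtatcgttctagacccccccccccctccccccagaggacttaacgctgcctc
Idh1 internal start: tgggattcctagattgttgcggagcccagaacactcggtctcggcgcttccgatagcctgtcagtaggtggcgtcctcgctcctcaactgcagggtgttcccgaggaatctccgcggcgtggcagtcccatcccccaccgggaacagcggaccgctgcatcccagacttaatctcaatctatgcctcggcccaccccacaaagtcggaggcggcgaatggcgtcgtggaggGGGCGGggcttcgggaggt
The Idh2 window held 1 CCAAT box, beginning 44 bases before the RefSeq start, and 2 GC boxes, beginning 38 and 18 bases before it. The 2 annotations used here place this start differently. The GENCODE span of Idh2 given above reaches 80115392, inside the window. Both GC boxes lie within that span and the CCAAT box crosses its edge. The upstream window of Idh1 held 1 CCAAT box at 151 bases and 2 GC boxes at 171 and 107 bases before the RefSeq start. The GENCODE span of Idh1 reaches 65186500, also inside its window, but these matches lie outside the span. The internal window of Idh1 held a GC box at 19 bases and no CCAAT box. Of all 32851 RefSeq promoter windows, 33.8% held a CCAAT box and 32.7% a GC box, so these matches are common. The E-box, the nuclear receptor half-site and the antioxidant core, found in 6.02, 14.0 and 10.2% of windows, had no match in these 3 windows. The G and C content of the Idh2 window was 67.2%, and it was 61.6 and 63.6% in the windows of Idh1, beside a median of 52.4% over all windows. A match describes letters only and is no evidence that a factor binds.

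Idh2, the mitochondrial NADP-linked enzyme, was at 174 and 186 CPM in PA livers, against 64.8 and 75.5 CPM in WT livers. Both PA libraries lay above both WT libraries, and the gap between the groups was much wider than the spread within either. The means were 180 ± 8.56 CPM in PA and 70.2 ± 7.57 CPM in WT (SD, n = 2 each), a log2 fold change of 1.36 with a standard error of 0.21. In the fit over all 14411 tested genes it was the only member called (edgeR quasi-likelihood test, adjusted p = 0.0474), at rank 112 by p. Over all tested genes 0.812% were called, 0.264% higher and 0.548% lower in PA. Since the family was chosen with this contrast known, nothing is read from 1 call in 5 members. The call was lost when either WT liver was left out, but not when either PA liver was left out. The log2 fold change was 1.24 with WT replicate 1 left out and 1.48 with WT replicate 2 left out. It was 1.41 with PA replicate 1 left out and 1.31 with PA replicate 2 left out. The call was also lost with limma-voom (adjusted p = 0.0509), with a filter of CPM over 1 in at least 2 libraries (edgeR, 0.0521) and with RSEM counts (edgeR, 0.0533). RNA from whole liver cannot tell a change in RNA per cell from a change in the number of cells of a type.

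Idh1, the cytosolic and peroxisomal NADP-linked enzyme, was at 716 and 650 CPM in PA livers, against 807 and 854 CPM in WT livers. Both PA libraries lay below both WT libraries, the opposite order to Idh2. The means were 683 ± 46.5 CPM in PA and 831 ± 33.3 CPM in WT (SD, n = 2 each), a log2 difference of -0.28 (standard error 0.24). It was not called (edgeR adjusted p = 0.72), and both PA libraries lay below both WT libraries in 21.9% of all tested genes. The groups of Idh1 were therefore separated, but by an amount that the fit did not set apart from the variation between mice.

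**Figure D1:**
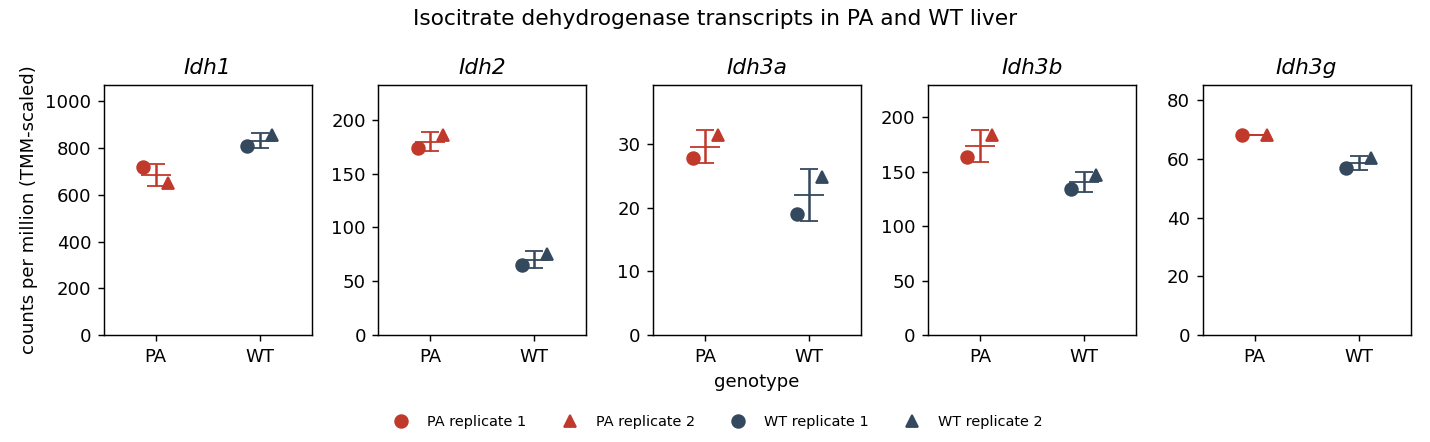
TMM-scaled CPM of the 5 isocitrate dehydrogenase genes, with PA left of WT in each panel. Points are single livers, bars are the mean ± SD of 2 livers, each panel has its own axis from 0, and Idh1 is the member whose PA livers (716 and 650) lie below its WT livers (807 and 854).

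The balance between the 2 NADP-linked genes was compared on RSEM's TPM values, which are normalised for transcript length and for the library total. Idh2 had 0.331 and 0.387 transcripts for each Idh1 transcript in PA livers, against 0.109 and 0.121 in WT livers. The ratio was therefore higher in both PA livers than in either WT liver, and as a ratio within a library it does not depend on how libraries are scaled. Idh2 made up 24.8 and 27.9% of the summed NADP-linked TPM in PA livers, against 9.83 and 10.8% in WT livers. The sum itself was 379 and 443 TPM in PA livers, against 474 and 478 TPM in WT livers. That gap was not found on other scales. With TPM taken over nuclear genes only, a step added after these values were seen, the sum was 478 and 534 TPM in PA livers, against 531 and 542 TPM in WT livers. In CPM, also added then and not scaled for transcript length, it was 890 and 836 in PA livers, against 872 and 930 in WT livers, so the groups overlapped on both of these scales. With 2 livers a group the smallest two-sided p of an exact permutation test is 0.333, so these ratios were not tested.

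**Figure D2:**
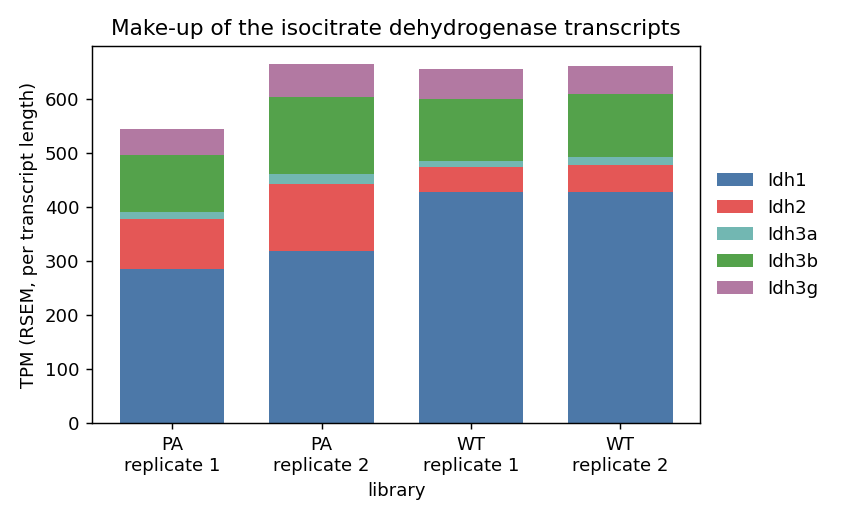
TPM of the 5 members stacked for each library, PA livers on the left. Idh1 takes 52.3 and 48.0% of the stack in PA livers, against 65.3 and 64.5% in WT livers, and Idh2 takes 17.3 and 18.6% in PA livers, against 7.12 and 7.78% in WT livers.

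Among the mitochondrial members, Idh2 took 36.2 and 35.7% of the summed TPM in PA livers, against 20.6 and 21.9% in WT livers. For each Idh3b transcript there were 0.902 and 0.866 Idh2 transcripts in PA livers, against 0.408 and 0.442 in WT livers. Idh2 was thus near the level of the most abundant Idh3 subunit in PA livers and under it in WT livers. For each Idh3a transcript there were 7.27 and 6.78 Idh2 transcripts in PA livers, against 4.06 and 3.66 in WT livers. None of these ratios overlapped between the groups, but all have Idh2 as numerator and are not separate observations. In CPM 21.3% of all tested genes had both PA livers above both WT livers, and 21.9% had both below. How often ratios of other genes separate was not computed.

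The NAD-linked subunits were all somewhat higher in CPM in PA livers, and none was called. Idh3a, the catalytic alpha subunit, was at 27.7 and 31.4 CPM in PA livers, against 19.0 and 24.8 CPM in WT livers. The WT livers differed from each other by more than the gap between the lower PA liver and the higher WT liver. The estimated log2 fold change, 0.43 (standard error 0.21), was not called (edgeR adjusted p = 0.5). It was 0.25 with WT replicate 1 left out and 0.64 with WT replicate 2 left out, and it was not called in either case.

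Idh3b, the beta subunit, was at 163 and 183 CPM in PA livers, against 134 and 147 CPM in WT livers, which gives 0.31 ± 0.21 (log2 fold change ± SE; adjusted p = 0.642, edgeR). Idh3g, the gamma subunit, was at 68.1 and 68.0 CPM in PA livers, against 56.9 and 60.3 CPM in WT livers, which gives 0.22 ± 0.19 (log2 fold change ± SE; adjusted p = 0.726, edgeR). In CPM both PA livers stood above both WT livers for every Idh3 subunit, an order that 21.3% of all tested genes showed. In TPM the groups overlapped for all 3 subunits. Idh3b was at 104 and 143 TPM in PA livers, against 114 and 116 TPM in WT livers, so PA replicate 1 was the lowest and PA replicate 2 the highest of the 4.

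Mitochondrially encoded transcripts, which share the TPM total, made up 20.7 and 17.1% of TPM in PA livers, against 10.6 and 11.7% in WT livers. With TPM computed over nuclear genes only, a step added after these values were seen, both PA livers stood above both WT livers for Idh3a and Idh3g. For Idh3a the means were then 19.1 ± 3.99 in PA and 14.4 ± 2.17 in WT (SD, n = 2 each), with PA replicate 1 at 16.3 just above WT replicate 2 at 15.9. For Idh3b the groups still overlapped, at 132 and 172 in PA livers, against 128 and 132 in WT livers. Idh3g in PA replicate 1 then differed from WT replicate 1 only in the third decimal, so the separation of this subunit is not a firm one. In CPM 21.3% of all tested genes had both PA livers above both WT livers, and no such share was computed for nuclear TPM. Idh2 stayed above and Idh1 below on this scale, with ratios of mean TPM of 2.42 and 0.773, against 2.22 and 0.706 over all genes.

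The subunit messages were far from equal in amount. For each Idh3a transcript there were 8.06 and 7.83 Idh3b transcripts in PA livers, against 9.95 and 8.29 in WT livers, and 3.73 and 3.36 Idh3g transcripts in PA livers, against 4.75 and 3.75 in WT livers. The message of the catalytic subunit was thus the scarcest of the 3 in every liver. The ratio of Idh3b to Idh3g was 2.16 and 2.33 in PA livers, against 2.10 and 2.21 in WT livers, with the groups overlapping. The ratios to Idh3a were lower in PA livers without overlap, but PA replicate 1 and WT replicate 2 differed little, at 3.73 and 3.75 for Idh3g. How often such ratios separate among other genes was not computed.

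By TPM the order of the levels was Idh1, Idh3b, Idh2, Idh3g and Idh3a in both PA livers, against Idh1, Idh3b, Idh3g, Idh2 and Idh3a in both WT livers. Idh1 was highest at 302 ± 24.4 TPM in PA and 427 ± 0.622 TPM in WT (SD, n = 2 each). Idh3b followed at 123 ± 27.1 TPM in PA and 115 ± 1.55 TPM in WT. Idh2 was at 109 ± 20.8 TPM in PA and 49.0 ± 3.41 TPM in WT. In PA livers the SDs of Idh2 and Idh3b overlapped, but within each library Idh2 was the lower, as the ratios of 0.902 and 0.866 show. Idh3g was at 54.8 ± 9.16 TPM in PA and 53.6 ± 1.3 TPM in WT, and the WT livers, at 54.5 and 52.6 TPM for Idh3g and 46.6 and 51.5 TPM for Idh2, left only a narrow gap between these genes. Idh3a was lowest at 15.6 ± 3.73 TPM in PA and 12.8 ± 1.82 TPM in WT. Idh2 and Idh3g changed places between the genotypes, and the other members kept theirs.

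The mean length of the transcripts assigned to each gene by RSEM, a coarse view of transcript choice, differed little. For Idh2, with 7 annotated transcripts, it was 1698 and 1719 bases in PA livers, against 1696 and 1699 bases in WT livers, with the groups overlapping. For Idh1 it was 2285 and 2291 bases in PA livers, against 2287 and 2292 bases in WT livers. For Idh3a it was 1927 and 1904 bases in PA livers, against 2033 and 1962 bases in WT livers, the only member whose groups did not overlap. Among 11320 tested genes whose length varied, 13.6% had both PA livers below both WT livers, and 42.6% had a larger relative difference than Idh3a. The deposited values used here are per gene, so no single transcript was compared.

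The members' counts, 584 to 24761 per library, were well separated from other genes. Of the 50-base stretches of the members' annotated transcripts, 0 were shared with an annotated transcript of any other gene, the other members included (0 of 2826 for Idh2 and 0 of 2859 for Idh1). Unannotated copies in the genome were not searched. Reads in the sense column, the strand opposite to the one carrying the messages, were 0 to 15 per member and library. Idh2 overlaps the annotated gene Gm45203 on its own strand, which had 1 and 1 counts in PA livers, against 0 and 0 in WT livers. Idh3b overlaps Nop56 on the other strand, and the strand-specific counts keep these apart.

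**Figure D3:**
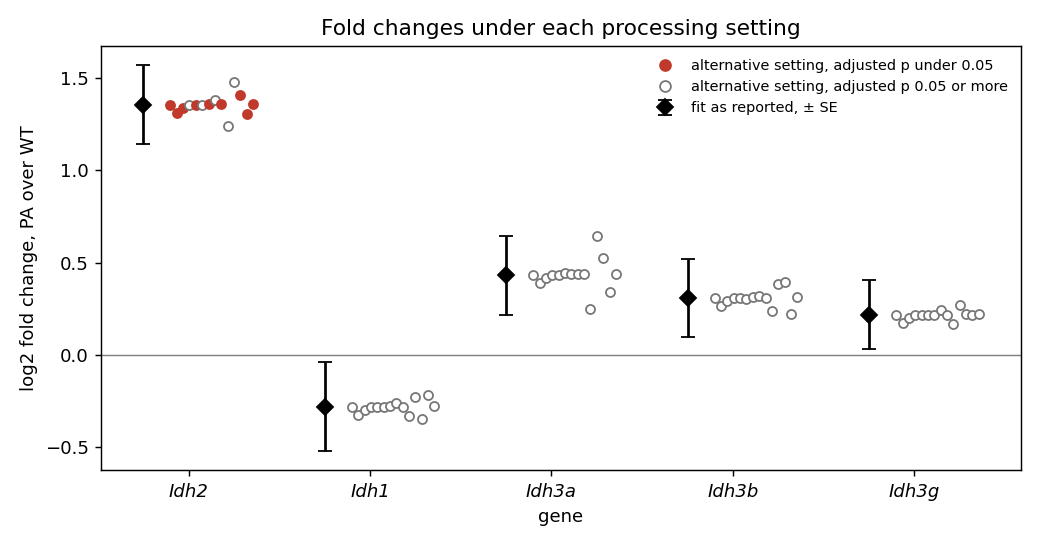
Log2 fold change, PA over WT, of each member. Black diamonds are the reported fit with its standard error and circles are the 14 alternative settings, filled where the adjusted p was under 0.05. Idh2 runs from 1.24 to 1.48 and is called in 9 of 14 settings, Idh1 stays below 0, and no Idh3 subunit is called.

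The enzymes on either side of isocitrate and 2-oxoglutarate were not called as single genes. Of 10 tested, 0 were called by edgeR in either direction, 0 by DESeq2 and 0 by limma-voom. Among them 5 had an unadjusted edgeR p under 0.05, all with higher values in PA. Over all 14411 tested genes edgeR called 117 (0.812%), DESeq2 442 and limma-voom 87. A count of 0 calls in this list or the lists below therefore says little. The share of all genes with an unadjusted p under 0.05 was not computed. Idh3a, at an unadjusted edgeR p of 0.0832, ranked 2401 of 14411, so fewer genes than that were under 0.05. The median log2 fold change of the 10 was 0.48, beside 0.0049 over all tested genes and 0.31 over the isocitrate dehydrogenases. Aco1, the cytosolic aconitase, was at 141 and 246 CPM in PA livers, against 156 and 169 CPM in WT livers, with the groups overlapping. Ogdh, a subunit of the complex that consumes 2-oxoglutarate in the cycle, was at 101 and 135 CPM in PA livers, against 80.6 and 78.5 CPM in WT livers. Cs, citrate synthase, was at 106 and 134 CPM in PA livers, against 86.5 and 73.6 CPM in WT livers. Got2, the mitochondrial aspartate aminotransferase, had the smallest p of the list, at 381 and 401 CPM in PA livers, against 242 and 239 CPM in WT livers (log2 fold change 0.70, edgeR adjusted p = 0.269).

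Other sources of NADPH, listed together with the NAD kinases Nadk and Nadk2, showed no call. Of 12 listed, 11 were tested, 0 were called by edgeR, DESeq2 or limma-voom, 0 had an unadjusted p under 0.05, and the median log2 fold change was 0.21. Aldh1l1, a cytosolic folate enzyme, was at 978 and 1444 CPM in PA livers, against 844 and 698 CPM in WT livers (log2 fold change 0.65, edgeR adjusted p = 0.457). Pgd, of the pentose phosphate pathway, was at 24.7 and 49.2 CPM in PA livers, against 25.8 and 25.3 CPM in WT livers, a difference carried by PA replicate 2. Nnt, the mitochondrial transhydrogenase that also makes NADPH in the matrix, was read at 0.707 and 0.740 CPM in PA livers, against 0.456 and 0.353 CPM in WT livers. For Mthfd1, another folate enzyme, the log2 fold change was 0.25 (adjusted p = 0.772, edgeR). Me3, the mitochondrial NADP-linked malic enzyme, was too low to be tested, at 0.118 and 0.101 CPM in PA livers, against 0.0326 and 0.118 CPM in WT livers.

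Users of NADPH, carriers and other consumers of 2-oxoglutarate gave a count of 0 calls by edgeR, DESeq2 and limma-voom alike. Of 11 thiol redox genes, 2 had an unadjusted p under 0.05 and the median log2 fold change was 0.13. On the log2 scale Glrx, glutaredoxin, differed by 0.83 (adjusted p = 0.256, edgeR) and Gsr, glutathione reductase, by 0.46 (0.405). Of 5 carriers, 1 had an unadjusted p under 0.05 and the median was 0.37. On the same scale Slc25a10, the dicarboxylate carrier, differed by 0.68 (adjusted p = 0.38, edgeR) and Slc25a1, the citrate carrier, by 0.37 (0.578). Of 5 tested genes of 2-hydroxyglutarate metabolism, 1 had an unadjusted p under 0.05, Mdh2, the mitochondrial malate dehydrogenase (log2 fold change 0.64, edgeR adjusted p = 0.304). For its cytosolic counterpart Mdh1 the value was -0.24 (adjusted p = 0.797, edgeR). D2hgdh, which removes D-2-hydroxyglutarate, was at 23.6 and 19.6 CPM in PA livers, against 20.6 and 20.1 CPM in WT livers. Of 24 tested 2-oxoglutarate-dependent dioxygenases, 0 had an unadjusted p under 0.05 and the median was -0.06. Egln3, a prolyl hydroxylase, had the smallest p of these (log2 fold change 0.58, edgeR adjusted p = 0.426).

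**Figure D4:**
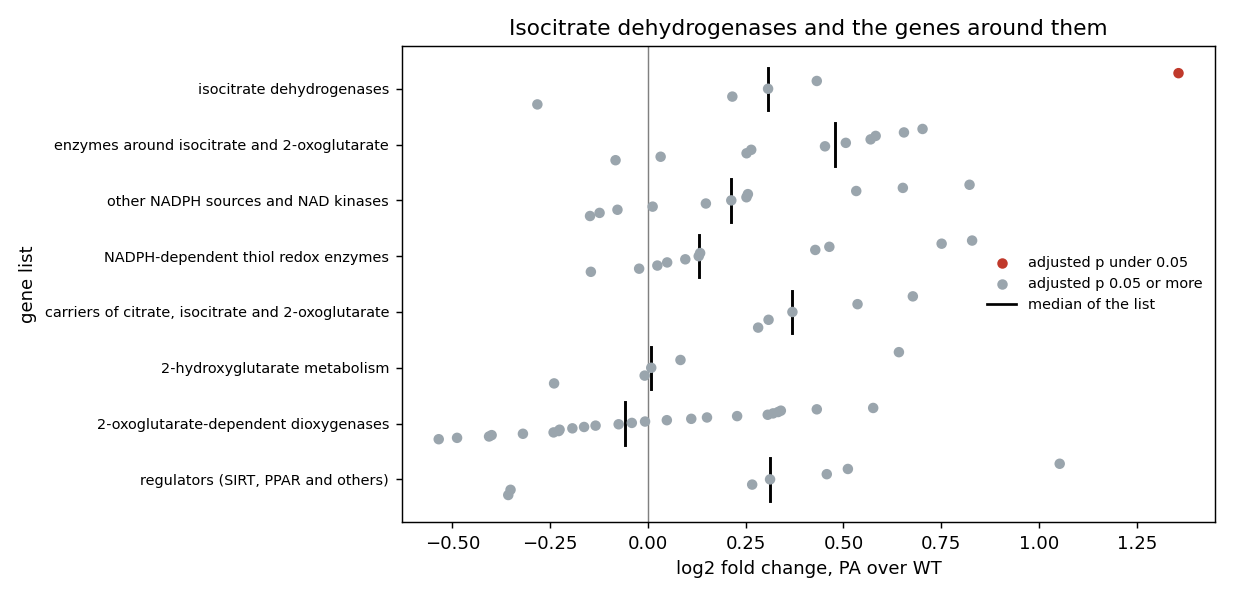
Log2 fold change, PA over WT, of each tested gene in the isocitrate dehydrogenase family and in the 7 lists around it. Points are genes, the black bar is the median of the list, and Idh2 at 1.36 is the only red point, which marks an adjusted p under 0.05.

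Regulators of these enzymes were not called by edgeR, DESeq2 or limma-voom (0 of 7, with 2 at an unadjusted p under 0.05, median 0.31). Sirt3, the mitochondrial deacetylase that acts on the enzyme of Idh2, was at 87.4 and 48.0 CPM in PA livers, against 74.5 and 99.0 CPM in WT livers, with the groups overlapping. Ppargc1a, a coactivator of mitochondrial genes, was at 22.1 and 14.6 CPM in PA livers, against 6.65 and 11.1 CPM in WT livers (log2 fold change 1.05, edgeR adjusted p = 0.251). Esrra, a nuclear receptor that works with it, was at 29.7 and 26.2 CPM in PA livers, against 18.0 and 21.2 CPM in WT livers (edgeR adjusted p = 0.379).

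The genes nearest to Idh2 in pattern were sought over the 4 libraries among 6894 protein-coding genes with a mean of at least 10 CPM, by Euclidean distance of centred log2 CPM. They were Ank3 at a distance of 0.114, Prodh at 0.122, mt-Nd2 at 0.143, Acad10 at 0.188 and mt-Nd5 at 0.198. Ank3 encodes an ankyrin, Prodh the mitochondrial proline dehydrogenase and Acad10 a member of the acyl-CoA dehydrogenase family, while mt-Nd2 and mt-Nd5 are subunits of respiratory complex I encoded in the mitochondrial genome. Prodh was at 310 and 303 CPM in PA livers, against 112 and 138 CPM in WT livers. The other isocitrate dehydrogenases were further away than these genes, which were picked as the nearest. Idh3a was at 0.929 (rank 413 by distance among the 6894 genes), Idh3b at 1.06 (rank 787) and Idh3g at 1.15 (rank 1268). Idh1 was at 1.65 (rank 5471). With 4 libraries, in which the genotype is the main contrast, such nearness is a description of these livers.

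Some values of the libraries moved with the genotype beside Idh2. The share of counts on mitochondrially encoded genes was 13.6 and 8.98% in PA livers, against 6.90 and 7.38% in WT livers. Of 13 listed mitochondrially encoded genes, all 13 had a positive log2 fold change, with a median of 1.11. Of these, 1 was called higher by edgeR, 7 by DESeq2 and 1 by limma-voom, and 9 had an unadjusted edgeR p under 0.05. With all mitochondrially encoded genes left out of the fit the log2 fold change of Idh2 was 1.36 (edgeR adjusted p = 0.0454). Markers of Kupffer cells, the resident macrophages of the liver, numbered 5 and summed to 222 and 336 CPM in PA livers, against 534 and 468 CPM in WT livers, with 0 called by edgeR or limma-voom, 2 called lower by DESeq2 and 3 at an unadjusted edgeR p under 0.05. The 5 red blood cell markers summed to 11.9 and 16.8 CPM in PA livers, against 88.5 and 47.5 CPM in WT livers, with 2 called lower by edgeR, 4 by DESeq2 and 1 by limma-voom. Their part in the values of the isocitrate dehydrogenases was not tested. Striated muscle, which is rich in Idh2 and Idh3 enzymes, had 7 markers that summed to 0.746 and 0.572 CPM in PA livers, against 0.424 and 0.0393 CPM in WT livers, and Ckm among them was at 0 in all 4. Of 4 adipocyte markers 3 were at 0 in all libraries, and of 4 kidney tubule markers 3 were at 0. Of the 5 hepatocyte markers that could be matched, 0 were called by edgeR or limma-voom, 1 was called higher by DESeq2 and 2 had an unadjusted edgeR p under 0.05. Their sum, mostly albumin, overlapped between the groups. Over all 14411 tested genes 117 were called by edgeR, 442 by DESeq2 and 87 by limma-voom. Cps1, the entry enzyme of the urea cycle, was at 4134 and 6703 CPM in PA livers, against 2597 and 2547 CPM in WT livers (adjusted p = 0.259, edgeR). Fgb, a fibrinogen chain, was at 4713 and 3661 CPM in PA livers, against 7797 and 6692 CPM in WT livers (adjusted p = 0.363, edgeR). The part of these markers in the values of the family was not tested either.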

How the data were processed

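Libraries from 4 livers were used, 2 PA and 2 WT, grouped by their titles. The authors deposited raw STAR (2.7.6a) read counts per gene, and RSEM (1.3.3) tables of expected counts, TPM and FPKM, on GRCm38, per the submitters' processing notes and the file headers. The annotation release used for counting is not given in the sources used here. The FPKM deposited by the authors were not used. Reads mapping to more than 1 place are dropped by STAR and shared out by RSEM. The opposite-strand column was used because it held 97.0 to 97.1% of stranded counts in each library. The 4 summary lines, which name no gene, held 34.3 and 28.1% of reads in PA and 29.6 and 31.1% in WT, and they were left out. GENCODE M21, on the same build, gave symbols and positions for 55227 of the 55487 identifiers. Mean transcript lengths in bases are other values from the RSEM files as deposited.

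PA was compared with WT using the quasi-likelihood test of edgeR 4.0.16 (R 4.3.3) with TMM scaling, filterByExpr and genotype as the only term, and with RSEM counts rounded. Benjamini-Hochberg adjustment ran over all tested genes, with a threshold of 0.05. DESeq2 1.42.0 and limma 3.58.1 were alternatives. Standard errors were derived from the fold change and its F statistic. The steps were also run on counts simulated with the variation fitted to these same libraries. Such a run cannot show how they behave with 2 real livers a group. Replicate pairs differed by more than sampling noise, with a chi-square per degree of freedom of 135 for PA and 46.3 for WT. The members and gene lists were chosen with earlier results of these data known. Of each list, up to 4 members with the smallest p were to be named; Aco1, Me3, Sirt3 and the markers Alb, Cps1, Fgb and Ckm were named beyond this rule, for their role and with their values seen. The values of 1 listed gene are not reported here. For the members, at 584 to 24761 counts per library, precision is limited by 2 livers a group, not by depth. Low genes such as Me3 and Nnt, with 10 and 63 counts in total over the 4 libraries, are limited by depth as well. A count of 3 corresponds to 0.0996 to 0.117 CPM.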

Additional observations from a re-analysis of the deposited data

How the results depend on the processing

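Under the 14 alternative settings tried for each member, every member kept its direction. This is no independent check. The PA and WT livers did not overlap in CPM for any member, so leaving out 1 liver could hardly reverse a direction. The other settings used the same 4 livers. Idh2 ranged from 1.24 to 1.48 and was called in 9 of them. Idh1, Idh3a, Idh3b and Idh3g were called in 0 of 14. Idh2 was not called with the CPM filter (log2 fold change 1.36, edgeR adjusted p = 0.0521), with limma-voom (1.36, 0.0509) or with RSEM expected counts (1.38, 0.0533). Leaving out each liver in turn gave 1.24 to 1.48 for Idh2, -0.35 to -0.22 for Idh1, 0.25 to 0.64 for Idh3a, 0.22 to 0.39 for Idh3b and 0.17 to 0.27 for Idh3g. The number of genes called over the whole fit was 117 (38 higher and 79 lower in PA). It was 902 with low counts kept in, 442 by DESeq2, and 155 to 500 when each liver was left out in turn. With the replicate number as a block it was 318 and Idh2 was at 1.36 (edgeR adjusted p = 0.016). The numbers are not stated to pair mice. The deviations of same-numbered libraries correlated at -0.0907 across genes. That value rests on a single pair of livers per genotype and cannot decide whether same-numbered mice were paired. The cause of these differences was not tested. With TPM over nuclear genes only, added after the data were seen, the PA to WT ratio of mean TPM of Idh1 was 0.773, against 0.706 over all genes. A fit with 1 liver in a group assumes that it varies like the other group.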
